A study of Mus musculus with 18 samples.

Results

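The 6 whole-kidney RNA libraries described here, of 18 in the series, set obstructed kidneys with a tubular deletion of Myc against kidneys that were not obstructed. In unilateral ureteral obstruction (UUO) 1 ureter is tied off, and the kidney that drains into it becomes injured and fibrotic. The question was what obstruction still changes when the tubule is meant to lack Myc. Libraries were chosen by their source label, 3 for each group. The labels give no replicate numbers, so replicates are numbered here by sample order within a group. Myc cKO UUO kidneys came from mice of 11 to 12 weeks that carried GGT-Cre and floxed Myc alleles, on a mixed C57BL6 and Balb/c background. GGT-Cre is driven by the promoter of a gamma-glutamyl transferase gene, whose enzyme sits in the brush border of the proximal tubule. Contralateral kidneys, opposite a ligated ureter, came from mice of 12 weeks of the Cdh5-CreERT2;Twist line, on a mixed C57BL6, 129sv and Balb/c background. In that group 2 mice were Cre-positive without floxed alleles and 1 was Cre-negative with floxed alleles. WT UUO kidneys, 3 obstructed kidneys with the same genotypes, strain mix and age as the contralateral group, are set against Myc cKO UUO as a second obstructed group. No unobstructed kidney of the Myc line is among the groups, so obstruction, Myc deletion and mouse line cannot be told apart in Myc cKO UUO against contralateral. Myc cKO UUO against WT UUO likewise mixes the deletion with the line, the Cre driver, the strain mix and the age range. Healthy kidneys, an alternative for the contralateral group, came from Cre-negative mice with floxed Twist alleles. Obstructed kidneys of the Twist and the Snail deletion, used for the level of single genes, came from Cre-positive mice with floxed alleles of the named gene under Cdh5-CreERT2, which acts in endothelium. All 3 of these groups were of 12 weeks; the Snail line had the C57BL6 and Balb/c mix and the others the mix with 129sv. The labels give neither the time after ligation nor which kidneys share an animal. The p-values therefore cover the variation among these libraries, part of which may be technical.

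In an obstructed kidney, back pressure damages the tubular epithelium, which lines the nephron and reabsorbs most of what is filtered. Injured proximal tubule cells lose their transporters and their capacity to oxidise fatty acids, make injury proteins and recruit immune cells, while fibroblasts and pericytes of the interstitium lay down collagen. Myc is a transcription factor that pairs with Max, binds E-box motifs and is known for driving ribosome production, nucleotide synthesis, glycolysis and cell division. In kidney disease models it has been linked to tubular metabolism and to fibrosis.

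The labelled tissue was checked first. Lrp2, Umod and Nphs1, which mark the proximal tubule, the loop of Henle and podocytes, were detected in all 6 libraries, and so was Aqp2 of the collecting duct. Library totals were 56724039, 72150950 and 66290576 counts in Myc cKO UUO kidneys, against 86053662, 86636514 and 91340782 counts in contralateral kidneys. Reads of mt-Rnr1 plus mt-Rnr2, the ribosomal RNAs of mitochondria, made up 30.8% ± 4.86 of the counts in Myc cKO UUO kidneys and 48.0% ± 1.795 in contralateral kidneys (SD, n = 3 each; exact permutation test, two-sided, p = 0.1, the smallest that 3 against 3 allows). On the first principal component, with 52.3% of the variance over all libraries, Myc cKO UUO replicate 1, 2 and 3 scored 63.91, 50.36 and -4.27, WT UUO kidneys 81.78 to 114.89 and contralateral kidneys -114.84 to -104.04. Myc cKO UUO replicate 3 thus stood apart from the other two, nearer to the unobstructed kidneys, and results that turn on it are given without it as well. By Ddx3y against Xist, 2 of 3 Myc cKO UUO and 1 of 3 contralateral libraries read as male.

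Of 21050 genes tested, 9372 (44.5%) were called between Myc cKO UUO and contralateral kidneys, at an adjusted p under 0.05 in edgeR's quasi-likelihood test. Higher genes were 22% of those tested (4636) and lower genes 22.5% (4736). A change of at least 2-fold was held by 21.3% of genes tested, 13.1% higher (2751) and 8.19% lower (1724). The median log2 fold change of all genes tested was 0.04. These shares are the background for every gene list below: a list with about 22% of its members called in each direction does what all genes do. Levels are CPM, read counts scaled to a common library total, with TMM scaling of the libraries (the trimmed mean of M-values), and differences between groups are given as log2 with a standard error (SE).

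Myc itself was higher in the Myc cKO UUO kidneys. Located at 61985391 to 61990374 of chromosome 15 (mm10), it had 18.8, 19.8 and 10.8 CPM in Myc cKO UUO kidneys, against 4.41, 3.45 and 4.43 CPM in contralateral kidneys. The lowest obstructed library, replicate 3, lay above every contralateral one. The difference was 2.01 ± 0.24 (log2, SE; adjusted p = 2.01e-05). WT UUO kidneys had 22.1, 23.8 and 21.8 CPM, and Myc cKO UUO differed from them by -0.45 (adjusted p = 0.217), with all 3 Myc cKO UUO libraries below all 3 WT UUO libraries, as 31.8% of all genes tested lay without overlap between these groups. The counts are per gene and the RNA is of whole kidney, so Myc transcripts of cells that GGT-Cre does not reach, and transcripts that lack the deleted exons, were counted too; where and how completely Myc was deleted was not measured here.

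Of the 13 genes of the Myc network, 4 rose and 3 fell, with a median log2 fold change of 0.14. Mycl, a Myc family member, had 8.16, 4.94 and 3.999 CPM in Myc cKO UUO kidneys, against 0.837, 2.86 and 0.689 CPM in contralateral kidneys, and rose by 1.97 ± 0.51 (adjusted p = 0.00574). Mga, a large Max partner, rose by 0.33 ± 0.09. Among the genes for proteins that compete with Myc for Max or for E-boxes, Mxd1 changed by -0.30 ± 0.09 and Mxi1 by -0.42 ± 0.13, and Mlx, the partner of the glucose-sensing Mondo proteins, by -0.71 ± 0.18. The calls of Mxd1 and Mxi1 were lost without Myc cKO UUO replicate 1 and without contralateral replicate 2, which left 1 of the 3 that fell. Max itself differed by -0.13 (adjusted p = 0.339).

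Genes that Myc is known to drive went both ways. Of 20 Myc target genes of ribosome biogenesis, 5 rose and 7 fell, with a median of 0.00. Of 20 targets in polyamine and nucleotide synthesis, 2 rose and 11 fell, with a median of -0.47. Against healthy in place of contralateral kidneys 3 ribosome biogenesis targets fell, and 5 polyamine and nucleotide targets rose. Windows are shown for the target genes named by rule whose promoters hold CACGTG, the E-box that Myc and Max bind. They are RefSeq windows (GRCm38.p6), from 250 bases before to 50 after the start of the gene, 5′ to 3′ on the gene's strand. The motif is in capitals, and the windows are the sequence on which such a factor could act. Srm, Cad and Ppat, named further below, were not named by rule, so their windows were left out whether or not they hold the motif. The windows are chrX:157492238-157492537 (minus strand) for Sms, chr6:125131633-125131932 (plus strand) for Nop2 and chr17:71615965-71616264 (plus strand) for Wdr43, and the motif starts at -196, -60 and 17 relative to the start.
Sms: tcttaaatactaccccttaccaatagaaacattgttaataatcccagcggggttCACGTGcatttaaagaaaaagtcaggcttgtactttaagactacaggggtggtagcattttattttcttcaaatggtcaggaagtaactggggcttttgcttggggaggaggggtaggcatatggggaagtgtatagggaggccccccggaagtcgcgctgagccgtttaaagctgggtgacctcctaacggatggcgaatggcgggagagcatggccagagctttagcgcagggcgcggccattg
Nop2: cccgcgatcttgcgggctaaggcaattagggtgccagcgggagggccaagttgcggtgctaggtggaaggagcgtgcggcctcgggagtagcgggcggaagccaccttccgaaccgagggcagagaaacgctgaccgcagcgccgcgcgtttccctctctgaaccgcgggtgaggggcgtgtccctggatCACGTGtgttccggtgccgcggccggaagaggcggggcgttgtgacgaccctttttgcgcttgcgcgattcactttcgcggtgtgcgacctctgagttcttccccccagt
Wdr43: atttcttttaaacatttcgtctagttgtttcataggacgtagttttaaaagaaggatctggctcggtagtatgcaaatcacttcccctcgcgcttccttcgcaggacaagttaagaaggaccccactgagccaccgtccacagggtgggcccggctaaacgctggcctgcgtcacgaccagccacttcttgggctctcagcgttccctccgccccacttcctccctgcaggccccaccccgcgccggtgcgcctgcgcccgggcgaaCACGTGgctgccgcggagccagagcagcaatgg
The motif reads the same on both strands. It occurred in 9.24% of the 12636 windows found for genes tested, in 4 of 16 (25%) for the ribosome biogenesis targets and in 6 of 18 (33.3%) for the polyamine and nucleotide targets, which describes these windows and shows no binding. Where a gene had several windows the first listed was used. For Npm1 and Bop1, named below, no window was found, so the motif was not looked for in them.

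The 3 genes shown differed in direction. Sms, which makes spermine, had 9.73, 11.5 and 9.15 CPM in Myc cKO UUO kidneys, against 27.5, 23.5 and 27.4 CPM in contralateral kidneys, and fell by 1.37 ± 0.16 (adjusted p = 1.15e-05). Nop2, which methylates ribosomal RNA, had 16.6, 16.2 and 14.3 CPM in Myc cKO UUO kidneys and 19.8, 25.5 and 22.6 CPM in contralateral kidneys, a log2 change of -0.53 ± 0.10. Wdr43, a factor of small-subunit processing, was 0.22 ± 0.07 higher (adjusted p = 0.0225), a call lost in 3 of 6 fits that leave out 1 library. Groups did not overlap for any of the 3 genes, which holds for 51.1% of all genes tested.

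Among other targets, Npm1, an abundant nucleolar chaperone, had 250.4, 249.5 and 258.5 CPM in Myc cKO UUO kidneys, against 140.7, 135.2 and 144.4 CPM in contralateral kidneys, and rose by 0.85 ± 0.07 (adjusted p = 1.59e-06). The box C/D proteins Nop58 and Nop56 rose by 0.64 ± 0.13 and 0.44 ± 0.10, and Dkc1, which makes pseudouridine, by 0.39 ± 0.09. Bop1, needed for the large subunit, had 14.3, 11.9 and 12.9 CPM in Myc cKO UUO kidneys, below the 17.7, 22.5 and 19.5 CPM of contralateral kidneys (-0.61 ± 0.09, adjusted p = 0.000111), a call lost against healthy kidneys (-0.19, adjusted p = 0.109). In nucleotide synthesis, Ctps, which makes CTP, rose by 1.10 ± 0.21 and Mthfd2, a mitochondrial folate enzyme, by 0.9996 ± 0.27. Shmt2, another mitochondrial folate enzyme, fell by 2.34 ± 0.25, with 19.2, 17.3 and 20.5 CPM in Myc cKO UUO kidneys against 82.3, 129.4 and 77.4 CPM in contralateral kidneys. Prps2, which makes the ribose donor of nucleotides, fell by 1.28 ± 0.13, and Gart, of purine synthesis, by 0.59 ± 0.09.

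Markers of tubular injury were high in all 3 Myc cKO UUO kidneys: 19 of 20 rose and none fell, with a median log2 fold change of 2.62, and the 19 calls held in each fit that left out 1 library. Havcr1 encodes KIM-1, a phosphatidylserine receptor that injured proximal tubule cells put on their surface (chromosome 11, 46735080 to 46779578, mm10). It had 524.9, 142 and 350.3 CPM in Myc cKO UUO kidneys, against 1.16, 3.36 and 0.755 CPM in contralateral kidneys. The groups lay far apart, with replicate 2 the lowest of the obstructed kidneys, and the difference was 7.60 ± 1.34 (adjusted p = 0.000396). Lcn2, the iron-siderophore carrier NGAL, had 113.1, 154.4 and 192 CPM in Myc cKO UUO kidneys and 1.84, 1.76 and 1.54 CPM in contralateral kidneys, and rose by 6.48 ± 0.30 (adjusted p = 1.32e-08).

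Vcam1, an adhesion molecule found on tubule cells that fail to repair, had 279.8, 352.4 and 154.4 CPM in Myc cKO UUO kidneys, against 9.26, 8.75 and 10.4 CPM in contralateral kidneys, a rise of 4.79 ± 0.28. Krt20, a keratin of simple epithelia, rose by 7.66 ± 0.52, and Tnfrsf12a, the receptor of TWEAK, by 2.32 ± 0.15. Cd44, a hyaluronan receptor, rose by 4.42 and Sox9, a transcription factor of regenerating tubules, by 3.42. The keratin Krt7 was the member not called, at -0.04. The summed level of the 20 genes was 11040, 15030 and 13480 CPM in Myc cKO UUO kidneys and 1142 to 1870 CPM in contralateral kidneys, so replicate 3 did not stand apart in injury genes.

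Among the 10 largest rises past a filter on average level, Arhgap36, Xirp2 and Sprr2f had no count in any contralateral library. They thus passed that filter through libraries other than the contralateral ones. Arhgap36 had 6.47, 17.5 and 6.25 CPM in Myc cKO UUO kidneys, at least 583-fold higher than a floor of 3 counts over the contralateral group. Xirp2, an actin-binding protein of muscle, was at least 167-fold and Sprr2f, of the cornified envelope, at least 160-fold higher by the same floor; both were lowest in replicate 3, at 0.313 and 0.224 CPM, and missed the threshold in limma voom (adjusted p = 0.063 and 0.104). Il1f6, which encodes the cytokine IL-36 alpha, had 5.34, 12.2 and 3.46 CPM in Myc cKO UUO kidneys and at most 0.0171 CPM in contralateral kidneys. Mmp7, matrilysin, rose by 8.45 ± 0.98, with 7.17, 12.6 and 12.3 CPM in Myc cKO UUO kidneys and at most 0.0492 CPM in contralateral kidneys. The mucin Muc4 rose by 7.49 ± 0.69 and the potassium channel Kcnh8 by 6.95 ± 0.77.

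**Figure D1:**
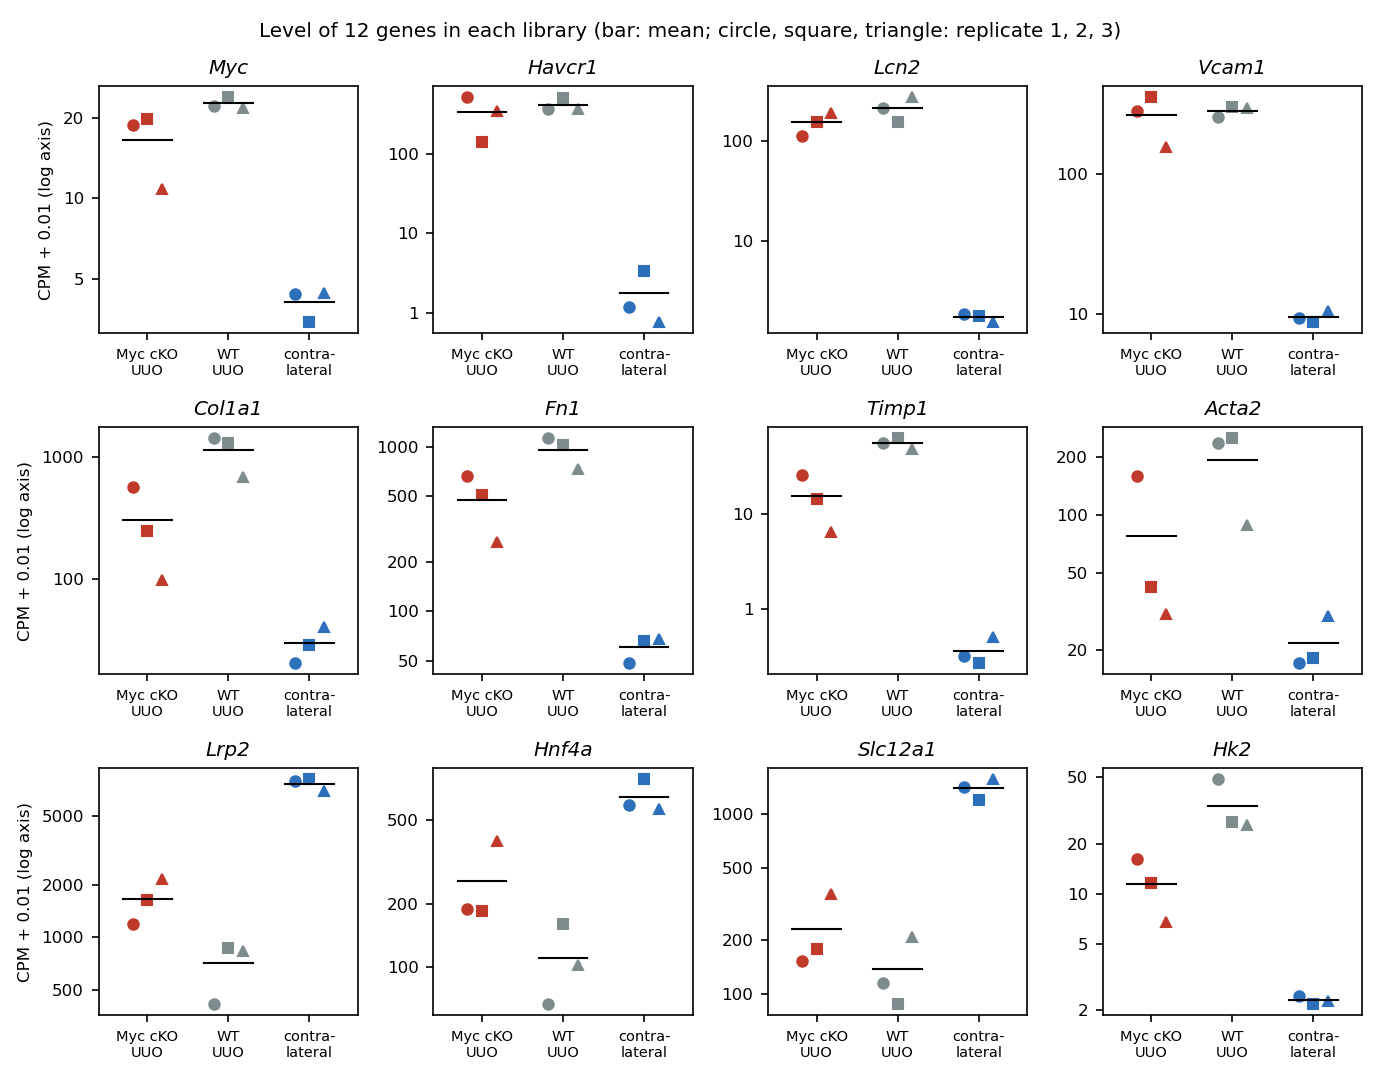
Level of 12 genes in each library, in CPM on a log axis, for Myc cKO UUO, WT UUO and contralateral kidneys; circles, squares and triangles are replicate 1, 2 and 3 and bars are means. Havcr1, Lcn2 and Vcam1 were far above contralateral in all 3 Myc cKO UUO libraries, while for Acta2 replicate 3 (30.9 CPM) was next to the highest contralateral library (29.9 CPM).

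Extracellular matrix genes rose together. Of 26 genes for fibrillar collagens and associated matrix, 25 rose and none fell, with a median of 2.08; elastin (Eln) was the member not called. Col1a1, the main collagen of scars (chromosome 11, 94936224 to 94953042, mm10), had 568.8, 249 and 97.5 CPM in Myc cKO UUO kidneys, against 20.6, 28.9 and 40.1 CPM in contralateral kidneys. All 3 obstructed libraries were higher, with replicate 1 far above replicate 3. The difference was 3.35 ± 0.55 (adjusted p = 0.000211). Fn1, fibronectin, had 657.6, 505.7 and 264.6 CPM in Myc cKO UUO kidneys and 48.6, 65.8 and 67.6 CPM in contralateral kidneys, a rise of 2.97 ± 0.32. Lox, which cross-links collagen, had 84.0, 83.4 and 66.0 CPM in Myc cKO UUO kidneys, against 5.98, 6.76 and 5.66 CPM in contralateral kidneys, and rose by 3.67 ± 0.42. Fbn1 of microfibrils rose by 2.47 ± 0.30 and the proteoglycan Bgn by 1.83 ± 0.19. The summed level of the 26 genes was 7045, 4146 and 2244 CPM in Myc cKO UUO kidneys and 821.7, 944.8 and 1036 CPM in contralateral kidneys. Fewer cells of a type and less RNA per cell cannot be told apart in such whole-kidney values, here or below.

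Basement membrane genes went both ways: 7 of 19 rose and 4 fell, and 12 rose against healthy in place of contralateral kidneys. The widespread chains Col4a1 and Col4a2 rose by 1.24 ± 0.17 and 0.98 ± 0.13, with 947.2, 854.3 and 723.2 CPM of Col4a1 in Myc cKO UUO kidneys and 337.9, 438.7 and 292.9 CPM in contralateral kidneys. Nid1, which links laminin to collagen IV, rose by 1.49 ± 0.13 and the laminin chain Lama2 by 1.56 ± 0.19. The members that fell were Col4a3, Col4a4 and Col4a5, which form the collagen IV of the mature glomerular and tubular membranes, and Lama3. Col4a3 fell by 1.16 ± 0.20 and Col4a4 by 1.25 ± 0.19, and Lama3 had 24.1, 9.85 and 10.1 CPM in Myc cKO UUO kidneys, against 38.7, 116.4 and 72.9 CPM in contralateral kidneys.

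Of 19 matrix proteases and their inhibitors, 14 rose and 1 fell, with a median of 2.35. Timp1, an inhibitor of metalloproteinases, had 25.6, 14.1 and 6.39 CPM in Myc cKO UUO kidneys, against 0.307, 0.260 and 0.492 CPM in contralateral kidneys, and rose by 5.42 ± 0.53 (adjusted p = 4.68e-06). Mmp14, a membrane collagenase, rose by 2.58 ± 0.29, Adamts1 by 2.18 ± 0.18 and Plaur, the urokinase receptor, by 1.73 ± 0.13. Timp3 was the member that fell, by 1.33 ± 0.18, with 390.9, 412.5 and 383.6 CPM in Myc cKO UUO kidneys and 914.2, 1248 and 827.6 CPM in contralateral kidneys.

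Stromal cell genes rose less uniformly. Of 17 myofibroblast and pericyte markers 11 rose and none fell (median 1.16), and 8 rose without Myc cKO UUO replicate 1. Pdgfra and Pdgfrb, the growth factor receptors of fibroblasts and pericytes, rose by 1.57 ± 0.19 and 1.16 ± 0.16. Thy1, of activated fibroblasts, had 17.98, 6.73 and 1.94 CPM in Myc cKO UUO kidneys, against 0.342, 0.780 and 0.853 CPM in contralateral kidneys. Acta2, smooth muscle actin and the classical myofibroblast marker, had 160.3, 42.5 and 30.9 CPM in Myc cKO UUO kidneys and 17.2, 18.3 and 29.9 CPM in contralateral kidneys. Replicate 1 carried much of that difference of 1.84 ± 0.51 (adjusted p = 0.0085), and without it the adjusted p was 0.104. The list's score, the mean log2 level relative to the contralateral mean, was 1.98, 1.15 and 0.40 in Myc cKO UUO replicate 1, 2 and 3.

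Of 18 ligands, receptors and brakes of TGF-beta and PDGF signalling, 12 rose and 3 fell. Among ligands, Inhba, the activin A chain, rose by 3.89 and Tgfb3 by 2.00; Bmp7, which opposes TGF-beta in the tubule, fell by 1.59 ± 0.23, with 7.76, 10.6 and 15.0 CPM in Myc cKO UUO kidneys and 29.4, 35.3 and 35.8 CPM in contralateral kidneys. Pdgfc fell by 0.49 ± 0.14. The receptors Tgfbr2 and Tgfbr1 rose by 1.01 ± 0.15 and 0.73 ± 0.13. Ltbp2, a latent TGF-beta binding protein of microfibrils, had 42.8, 17.8 and 8.43 CPM in Myc cKO UUO kidneys, against 0.359, 0.372 and 1.67 CPM in contralateral kidneys. Smad7, an inhibitor of the pathway, fell by 0.38 ± 0.10.

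Of 7 transcription factors known from epithelial or endothelial to mesenchymal transition, 6 rose. Zeb2 had 257.8, 222.3 and 154.4 CPM in Myc cKO UUO kidneys, against 85.4, 82.4 and 92.8 CPM in contralateral kidneys, and rose by 1.28 ± 0.14. Twist1 had 0.971, 1.22 and 0.851 CPM in Myc cKO UUO kidneys, above the 0.188, 0.372 and 0.131 CPM of contralateral kidneys (2.14 ± 0.51, adjusted p = 0.00309). Prrx1, of mesenchymal cells, rose by 1.78 ± 0.31 and Zeb1 by 0.67 ± 0.11. Snai1 had 1.57, 1.92 and 0.478 CPM in Myc cKO UUO kidneys and 0.598, 0.687 and 0.640 CPM in contralateral kidneys. Replicate 3 lay below all contralateral libraries, and the call (adjusted p = 0.0423) held in 1 of 6 fits that leave out 1 library.

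**Figure D2:**
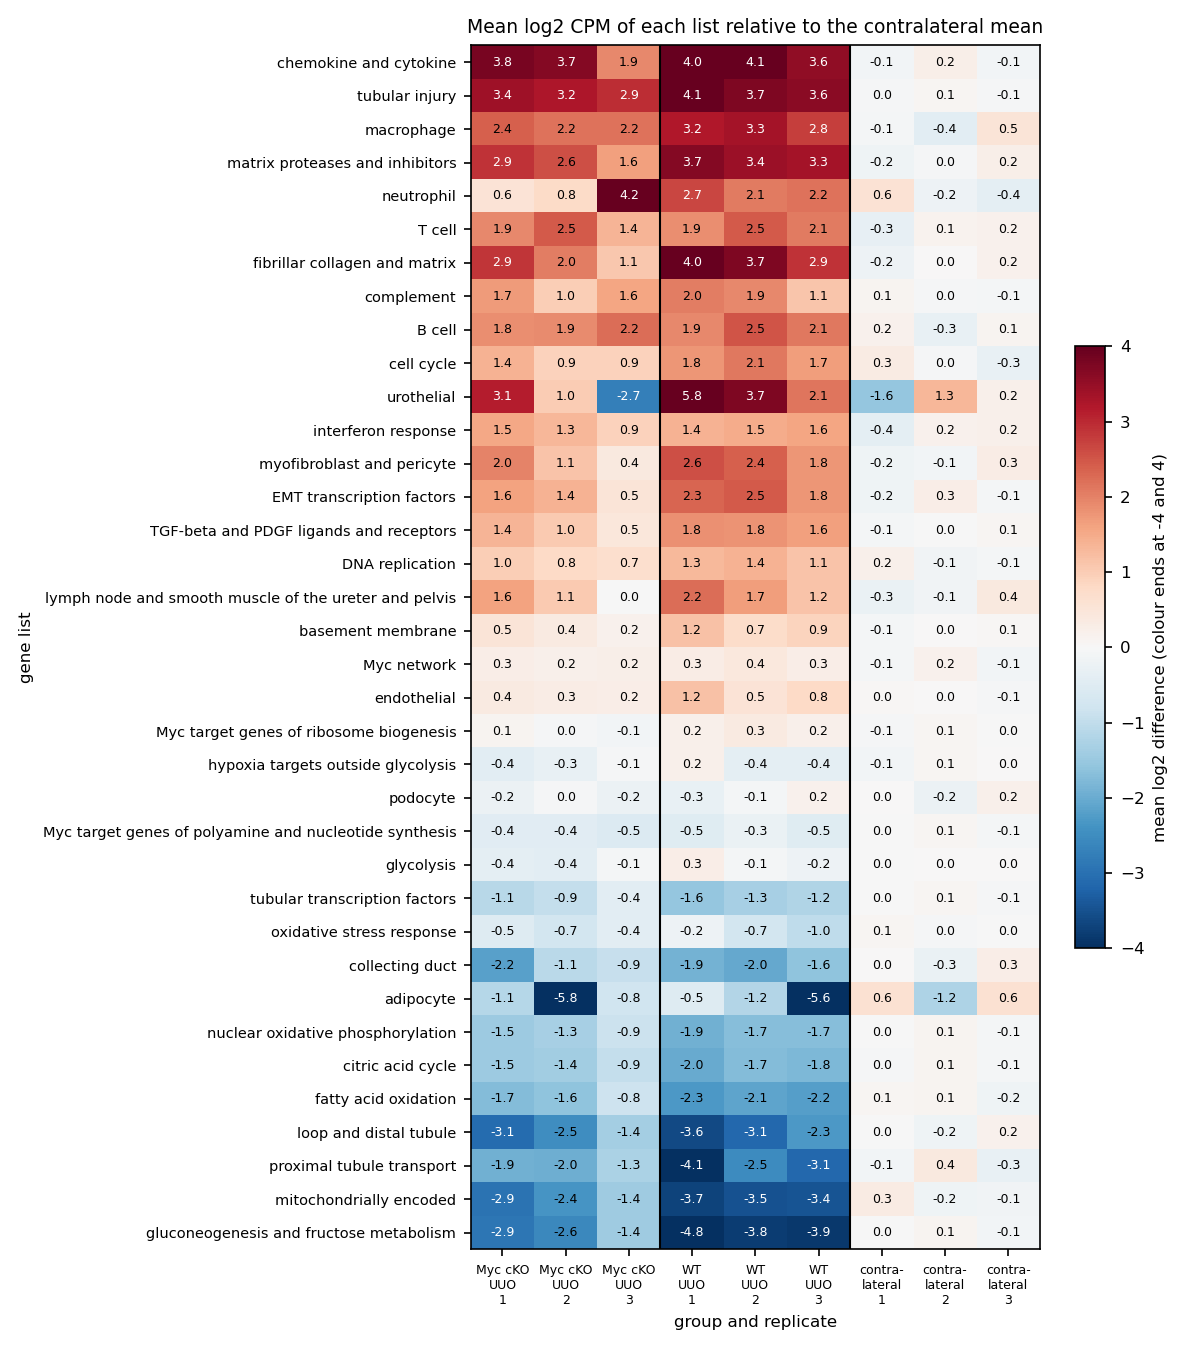
Score of each gene list in each library: the mean over members of log2 CPM minus the contralateral mean, red above and blue below 0. In Myc cKO UUO replicate 3 the matrix score was 1.08, against 2.87 and 2.04 in replicate 1 and 2, and the neutrophil score was 4.16, against 0.55 and 0.75.

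Immune signals rose in all 3 Myc cKO UUO kidneys. Of 22 chemokines and cytokines 18 rose and none fell, with a median of 3.19. The list's score was 3.80, 3.69 and 1.91 in Myc cKO UUO replicate 1, 2 and 3, so replicate 3 stood apart as the lowest. Ccl2, the main attractant of monocytes, had 21.4, 15.6 and 7.89 CPM in Myc cKO UUO kidneys, against 0.171, 0.130 and 0.263 CPM in contralateral kidneys, and rose by 6.29 ± 0.56 (adjusted p = 2.37e-06). The neutrophil attractants Cxcl1 and Cxcl2 rose by 5.09 ± 0.48 and 5.64 ± 0.69, and Cxcl16, a membrane-bound chemokine for T cells, by 1.63 ± 0.14. Ccl20 rose by 7.04, Il6 by 4.40 and Tnf by 3.40, while Il1a was not called, at -0.27.

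Macrophage markers followed, with 12 of 15 higher and none lower (median 2.56). Mrc1, the mannose receptor, had 141.3, 126.1 and 118.4 CPM in Myc cKO UUO kidneys, against 10.9, 8.51 and 7.61 CPM in contralateral kidneys, a rise of 3.84 ± 0.23 (adjusted p = 8.57e-08). The obstructed libraries lay close together and replicate 3 did not stand apart. Cd14, the co-receptor for bacterial lipopolysaccharide, rose by 3.27 ± 0.24 and the C1q chains C1qa and C1qc by 2.56 ± 0.22 and 2.65 ± 0.23. The members not called were Gpnmb, Arg1 and Mertk, at -0.04, -0.70 and -0.45.

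Of 14 T cell genes 10 rose and none fell; 6 rose without Myc cKO UUO replicate 2, and likewise without contralateral replicate 1 or against healthy kidneys. Cd4 had 2.91, 4.76 and 1.07 CPM in Myc cKO UUO kidneys, against 0.359, 0.409 and 0.377 CPM in contralateral kidneys, and Cd8b1 had 0.638, 1.12 and 0.328 CPM against 0.0512, 0.0372 and 0.131 CPM. The groups did not overlap in either gene, and Lck, the kinase of the T cell receptor, rose by 1.76 ± 0.37. Of 8 B cell genes 4 rose. Ighm, the heavy chain of IgM, had 11.3, 8.58 and 32.0 CPM in Myc cKO UUO kidneys, with replicate 3 the highest, and 4.22, 3.47 and 3.22 CPM in contralateral kidneys.

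Neutrophil genes were called through 1 library. Of 9 measured, 6 rose, and without Myc cKO UUO replicate 3 only Csf3r, the G-CSF receptor, was called higher in the list. Ngp, a protein of neutrophil granules, had 0.0832, 0.0737 and 6.46 CPM in Myc cKO UUO kidneys, against 0.0683, 0 and 0.131 CPM in contralateral kidneys. Ltf, lactoferrin, had 0.333, 0.0982 and 6.15 CPM in Myc cKO UUO kidneys and 0.0683, 0.130 and 0.0984 CPM in contralateral kidneys. For both genes replicate 3 stood far above the other two Myc cKO UUO kidneys, which lay within or near the contralateral range. The summed level of the 9 genes was 8.39, 10.4 and 53.7 CPM in Myc cKO UUO kidneys and 2.59 to 7.74 CPM in contralateral kidneys, and the part of these cells in the other values of replicate 3 was not tested.

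In the complement system 9 of 14 genes rose and 1 fell. C3, the central component, rose by 3.93, and Masp1, a protease of the lectin pathway, had 7.46, 4.61 and 8.21 CPM in Myc cKO UUO kidneys, against 0.751, 0.910 and 0.788 CPM in contralateral kidneys (3.05 ± 0.22). C3ar1, the receptor of C3a on myeloid cells, rose by 2.97 ± 0.27 and the inhibitor Serping1 by 1.88 ± 0.20. Cfb of the alternative pathway fell by 0.96 ± 0.26 on the log2 scale, a call lost without contralateral replicate 2 (adjusted p = 0.0525). Of 15 interferon response genes 13 rose, and 9 rose without contralateral replicate 1. Ifit2, an RNA-binding antiviral protein, had 41.6, 36.5 and 40.5 CPM in Myc cKO UUO kidneys, against 13.3, 13.3 and 15.2 CPM in contralateral kidneys. Bst2, which tethers virus particles, rose by 1.32 ± 0.23 and Oas2, an RNA sensor, by 1.86 ± 0.36.

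Genes of cell division were higher as well. Healthy kidneys scored -1.92, -1.74 and -1.11 on the cell cycle list, below the contralateral mean. The changes below are against contralateral kidneys and do not measure a rise over healthy ones. Of 18 cell cycle genes 14 rose and 1 fell, with a median of 1.39, and of 17 DNA replication genes 13 rose (9 without Myc cKO UUO replicate 1, and likewise without contralateral replicate 3). Cdk1, the mitotic kinase, had 8.45, 6.28 and 6.13 CPM in Myc cKO UUO kidneys, against 3.28, 1.99 and 1.82 CPM in contralateral kidneys, a rise of 1.56 ± 0.27 (adjusted p = 0.000295). Its partner Ccnb1 rose by 1.61 ± 0.28. Uhrf1, which copies DNA methylation at replication, rose by 2.04 ± 0.35 and the helicase subunit Mcm3 by 1.19 ± 0.20. Ccnd1, the cyclin of the entry into the cycle, was the member that fell, with 79.8, 65.1 and 84.4 CPM in Myc cKO UUO kidneys against 245.4, 240.8 and 237.7 CPM in contralateral kidneys (-1.66 ± 0.18).

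**Figure D3:**
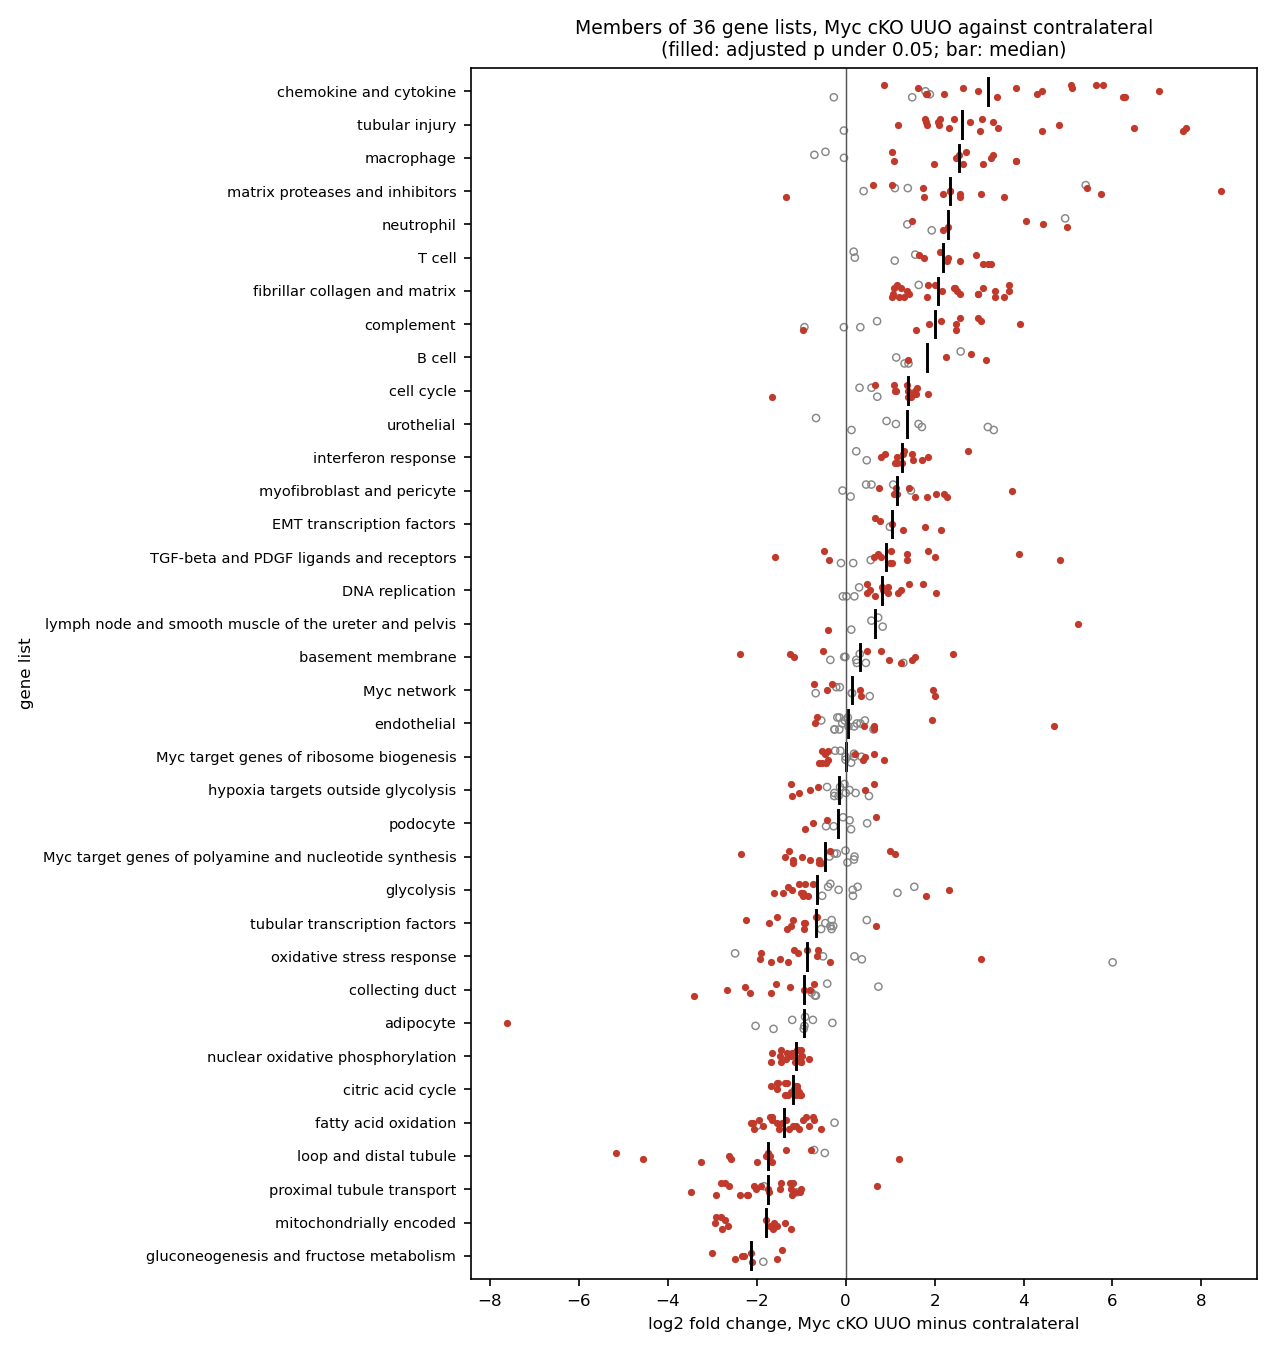
Log2 fold change of every tested member of the 36 gene lists, Myc cKO UUO minus contralateral, 1 point a gene; filled points have an adjusted p under 0.05 and bars are medians. Medians run from 3.19 for chemokines and cytokines to -2.13 for gluconeogenesis and fructose metabolism, and the 2 lists of Myc target genes lie at 0.00 and -0.47.

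Transport genes of the proximal tubule fell. Of 25 transporters and uptake receptors 22 fell and 1 rose, with a median of -1.74. Lrp2, megalin, which takes up filtered protein, had 1202, 1646 and 2175 CPM in Myc cKO UUO kidneys, against 7945, 8131 and 6938 CPM in contralateral kidneys, and fell by 2.196 ± 0.28 (adjusted p = 2.76e-05). Its partner Cubn, cubilin, fell by 1.72 ± 0.25 and the water channel Aqp1 by 1.74 ± 0.25. Slc7a8, an amino acid exchanger, had 19.99, 26.3 and 26.3 CPM in Myc cKO UUO kidneys and 138.7, 141.1 and 99.3 CPM in contralateral kidneys, a fall of 2.39 ± 0.20. Slc13a1, the sulfate transporter, was the exception, with 801, 703.1 and 872.9 CPM in Myc cKO UUO kidneys and 570.7, 520.6 and 376.7 CPM in contralateral kidneys. Its rise of 0.70 ± 0.26 (adjusted p = 0.0422) was called in 2 of 6 fits that leave out 1 library and missed the threshold with a Cre covariate (adjusted p = 0.101).

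Gluconeogenesis and fructose metabolism are work the kidney does in the proximal tubule. Of 9 genes listed under them, 8 fell and none rose, with a median of -2.13. The list also holds Miox and Gatm, of other pathways, so these values are not of gluconeogenesis and fructose metabolism alone. Miox, which opens the inositol ring, had 76.6, 104 and 179.8 CPM in Myc cKO UUO kidneys, against 861.8, 1006 and 1013 CPM in contralateral kidneys, and fell by 2.999 ± 0.53. Gatm, the first enzyme of creatine synthesis, fell by 2.32 ± 0.36, the gluconeogenic Fbp1 by 2.29 ± 0.38 and the fructose kinase Khk by 2.11 ± 0.34. The summed level of the list was 1619, 2005 and 4003 CPM in Myc cKO UUO kidneys, replicate 3 being the highest, and 9106 to 10220 CPM in contralateral kidneys.

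Beyond the proximal tubule, 12 of 15 genes of the loop of Henle and distal tubule fell and 1 rose. Slc12a1, the salt carrier that furosemide blocks, had 152, 178.7 and 360.6 CPM in Myc cKO UUO kidneys, against 1407, 1192 and 1556 CPM in contralateral kidneys, a fall of 2.59 ± 0.34. The potassium channel Kcnj1 fell by 1.70 ± 0.25, and Kl, which encodes Klotho, the co-receptor of FGF23, by 2.62 ± 0.40. Umod, the protein of urinary casts, had 536.1, 986.6 and 1252 CPM in Myc cKO UUO kidneys and 2878, 2509 and 3334 CPM in contralateral kidneys. Trpv5, an entry channel for calcium, rose by 1.20 ± 0.29, with 48.2, 104.8 and 97.4 CPM in Myc cKO UUO kidneys and 35.0, 31.4 and 42.4 CPM in contralateral kidneys.

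Of 15 collecting duct genes 10 fell and none rose; 6 fell without Myc cKO UUO replicate 1, and 5 against healthy kidneys. The genes named were of acid-base transport: Slc4a1, the chloride-bicarbonate exchanger of type A intercalated cells, had 1.36, 1.71 and 9.36 CPM in Myc cKO UUO kidneys, against 49.1, 33.2 and 48.9 CPM in contralateral kidneys. Pendrin (Slc26a4) of type B intercalated cells fell by 2.16 ± 0.31 and the ammonia channel Rhcg by 2.26 ± 0.37. The sodium channel subunit Scnn1a fell by 1.58 ± 0.36. The vasopressin-regulated water channel Aqp2 had 7.60, 46.6 and 61.9 CPM in Myc cKO UUO kidneys and 68.6, 54.6 and 61.2 CPM in contralateral kidneys, and was not called; replicate 1 was low and replicate 3 within the contralateral range.

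The regulators of tubular identity and metabolism fell in 11 of 19 cases, and 1 rose. Esrra, the estrogen-related receptor that drives mitochondrial genes, had 18.9, 19.4 and 23.0 CPM in Myc cKO UUO kidneys, against 64.4, 76.0 and 62.6 CPM in contralateral kidneys, a fall of 1.73 ± 0.14 (adjusted p = 7.64e-07). Its coactivators Ppargc1b and Ppargc1a fell by 1.22 ± 0.15 and 0.93 ± 0.26, the second with replicate 3 (129.3 CPM) near the lowest contralateral library (136.5 CPM). Hnf4a, the regulator of proximal identity, had 188.3, 185.8 and 397.4 CPM in Myc cKO UUO kidneys and 587.7, 776.4 and 560.6 CPM in contralateral kidneys, and Vdr, the vitamin D receptor, fell by 1.18 ± 0.25. Pax8, a nephron development factor, was the member that rose, by 0.68 ± 0.13.

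Mitochondrial genes fell in all 4 lists. All 21 genes of the citric acid cycle, all 22 nuclear subunits of oxidative phosphorylation and all 13 mitochondrially encoded messages fell, with medians of -1.18, -1.12 and -1.78, and these counts were the same in each fit that left out 1 library. Of 24 genes of fatty acid oxidation 22 fell and none rose (median -1.38). Acadm, the medium-chain dehydrogenase, had 126.9, 111.9 and 207.2 CPM in Myc cKO UUO kidneys, against 715.5, 738.5 and 501.1 CPM in contralateral kidneys, and fell by 2.13 ± 0.28. Cpt1a, which admits long-chain fatty acids to mitochondria, had 146.9, 189.3 and 357.8 CPM in Myc cKO UUO kidneys and 467.2, 514.9 and 444 CPM in contralateral kidneys. The groups did not overlap, and Cpt1a fell by 1.04 ± 0.24 (adjusted p = 0.00228). Etfa, which passes electrons from fatty acids to the respiratory chain, fell by 1.42 ± 0.15.

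Ogdh, a control point of the citric acid cycle, had 150.8, 162.8 and 211.5 CPM in Myc cKO UUO kidneys, against 529.6, 647.3 and 517.1 CPM in contralateral kidneys, a fall of 1.69 ± 0.16. Mdh2 and the succinate dehydrogenase subunit Sdhc fell by 1.35 ± 0.15 and 1.23 ± 0.14. In the respiratory chain, Uqcrc1 and Cyc1 of complex III fell by 1.69 ± 0.17 and 1.65 ± 0.19 and Atp5a1 of the ATP synthase by 1.45 ± 0.19. mt-Nd4, a complex I subunit made in the mitochondrion, had 585.6, 883.5 and 1101 CPM in Myc cKO UUO kidneys, against 2814, 3329 and 2699 CPM in contralateral kidneys. Without all mitochondrially encoded genes in the scaling, 9373 genes were called.

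Glycolysis did not rise as a pathway: of 22 genes 11 fell and 2 rose (5 against healthy kidneys), with a median of -0.64. Gapdh had 237.6, 214 and 212.9 CPM in Myc cKO UUO kidneys, against 551.3, 655.6 and 553.1 CPM in contralateral kidneys, and fell by 1.41 ± 0.14, beside Pfkm (1.62 ± 0.18) and Pgam1 (1.29 ± 0.18), which also fell. The members that rose were isoenzymes. Hk2, the hexokinase of growing and injured tissue and a known Myc target, had 16.1, 11.6 and 6.79 CPM in Myc cKO UUO kidneys and 2.43, 2.17 and 2.25 CPM in contralateral kidneys, a rise of 2.33 ± 0.36 (adjusted p = 0.000155). Eno2, the neuronal enolase, rose by 1.797 ± 0.23. Ldha, which makes lactate, differed by -0.39 ± 0.24 (adjusted p = 0.202).

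Hypoxia targets outside glycolysis likewise showed no common rise: 5 of 17 fell (3 without contralateral replicate 2, and likewise without replicate 3) and 2 rose (1 without Myc cKO UUO replicate 3, and likewise without contralateral replicate 3). Vegfa, the growth factor of capillaries, had 64.3, 70.6 and 92.2 CPM in Myc cKO UUO kidneys, against 158.7, 168.2 and 194.3 CPM in contralateral kidneys, and fell by 1.20 ± 0.16. Egln1, an oxygen sensor that HIF itself induces, fell by 1.04 ± 0.10. Kdm3a, a histone demethylase, and Ddit4, an inhibitor of mTORC1, rose by 0.44 ± 0.10 and 0.65 ± 0.23. Hif1a differed by -0.03 ± 0.19 (adjusted p = 0.921). Of 17 genes of the oxidative stress response 11 fell and 1 rose, 7 falling without Myc cKO UUO replicate 1 and likewise without replicate 2 or contralateral replicate 2. Gpx3, the glutathione peroxidase the kidney secretes, had 1171, 2237 and 3677 CPM in Myc cKO UUO kidneys and 9354, 8908 and 8873 CPM in contralateral kidneys. Catalase (Cat) fell by 1.90 ± 0.24 and Sod2 by 1.68 ± 0.19, and the cystine carrier Slc7a11 rose by 3.05 ± 0.73, a call lost in limma voom (2.70, adjusted p = 0.0769).

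Endothelial genes stayed closer to the background, with 5 of 22 higher and 2 lower and a median of 0.06; against healthy kidneys 3 were higher and 6 lower. Pecam1 and Cdh5, which join endothelial cells, had 67.9 to 71.5 and 41.7 to 45.0 CPM in Myc cKO UUO kidneys, against 43.2 to 45.9 and 26.5 to 30.4 CPM in contralateral kidneys, and rose by 0.64 ± 0.13 and 0.65 ± 0.13. The adhesion molecules Icam1 and Selp rose by 1.93 ± 0.14 and 4.70 ± 0.66. Kdr, the main VEGF receptor, had 45.9, 51.1 and 60.2 CPM in Myc cKO UUO kidneys and 79.9, 89.8 and 84.7 CPM in contralateral kidneys, a fall of 0.69 ± 0.14. Of 10 podocyte genes 3 fell and 1 rose (1 and 4 against healthy kidneys), none falling without Myc cKO UUO replicate 1 or without contralateral replicate 3. Nphs1, nephrin, differed by -0.91 ± 0.31, a call lost in 3 of 6 fits that leave out 1 library, and Cd2ap, which also acts in tubules, rose by 0.69 ± 0.10.

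Markers of tissue that lies beside the kidney varied widely between libraries of a group. None of 8 urothelial genes was called by edgeR's quasi-likelihood test (2 at an unadjusted p under 0.05, and 2 higher in DESeq2), and their summed level was 78.1, 17.8 and 2.02 CPM in Myc cKO UUO kidneys and 3.21, 20.8 and 11.8 CPM in contralateral kidneys. Krt5 of basal urothelium had 14.9, 1.92 and 0.0746 CPM in Myc cKO UUO kidneys, against 0.205 to 1.15 CPM in contralateral kidneys, so that replicate 1 and 2 lay above that range and replicate 3 below it. Actg2, the actin of ureteral smooth muscle, had 9.96, 1.09 and 0.0597 CPM in Myc cKO UUO kidneys and 0.0171 to 0.213 CPM in contralateral kidneys, a call lost in 4 of 6 fits that leave out 1 library. Of 9 fat cell genes 1 fell: Ucp1, the uncoupling protein of brown fat, had 0.0139, 0.0491 and 0.0298 CPM in Myc cKO UUO kidneys, against 10.9, 8.17 and 0.656 CPM in contralateral kidneys. Healthy kidneys averaged 0.0258 ± 0.0448 CPM of Ucp1 (SD, n = 3), and Myc cKO UUO differed from them by 0.09 (adjusted p = 0.975). The part of such tissue in other genes was not tested.

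**Figure D4:**
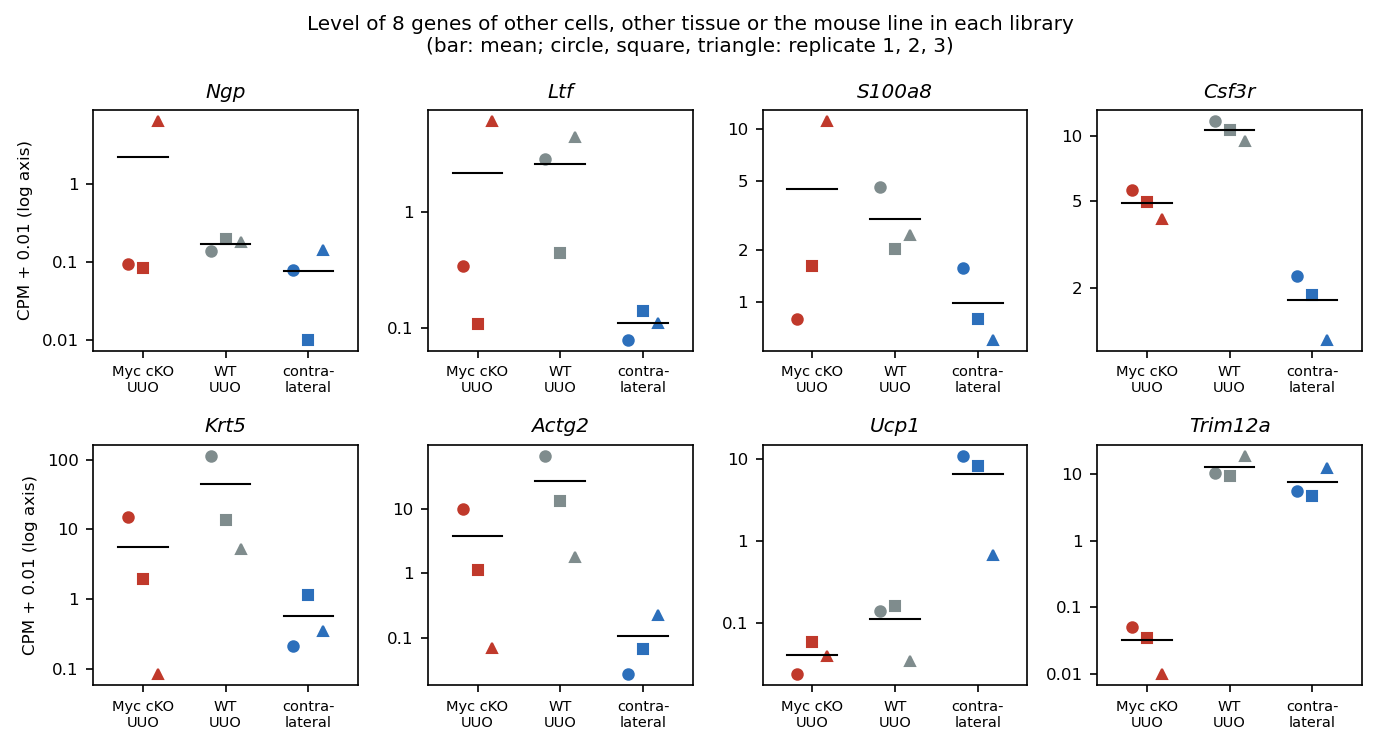
Level of 8 genes of neutrophils, urothelium, smooth muscle, brown fat or the antiviral Trim5 family in each library, in CPM on a log axis. Symbols are replicate 1, 2 and 3 and bars are means. Ngp, Ltf and S100a8 were high in Myc cKO UUO replicate 3 among the Myc cKO UUO kidneys, and Trim12a was at or under 0.0416 CPM in all 3 of them.

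The 10 largest falls past the filter on average level held tubular genes and 2 immune genes of chromosome 7. Egf, made by the loop and distal tubule, had 26.6, 26.9 and 198.7 CPM in Myc cKO UUO kidneys, against 1800, 1683 and 2453 CPM in contralateral kidneys, and fell by 4.56 ± 0.92. Pvalb, parvalbumin of the distal tubule, had 0, 0 and 2.63 CPM in Myc cKO UUO kidneys and 39.5, 15.7 and 37.5 CPM in contralateral kidneys. In both genes replicate 3 was the highest obstructed library. Slc22a7, an organic anion transporter, fell by 4.79 ± 0.92, the methyltransferase Bhmt by 4.85 ± 1.09 and Cyp2d12, a cytochrome P450, by 5.16 ± 1.02. Akr1c18, a steroid dehydrogenase, Mogat2, of fat synthesis, and Sec14l3, a lipid carrier, fell by 4.64 ± 1.18, 4.53 ± 0.72 and 4.39 ± 1.02.

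Trim12a, of the antiviral Trim5 family (chromosome 7, 104299894 to 104315466, mm10), had 0.0416, 0.0246 and 0 CPM in Myc cKO UUO kidneys, against 5.48, 4.70 and 12.1 CPM in contralateral kidneys, and Gvin1, an interferon-inducible GTPase gene on the same chromosome (106156556 to 106215326), had 0.0277, 0.0982 and 0.0149 CPM against 0.973, 0.613 and 1.51 CPM. These genes were near 0 in all 3 Myc cKO UUO kidneys, while Trim12a averaged 17.8 ± 1.88 CPM in obstructed kidneys of the Snail deletion, 10.9 ± 4.13 CPM in those of the Twist deletion and 12.9 ± 5.17 CPM in WT UUO kidneys (SD, n = 3 each). Healthy kidneys had 4.35, 0.0205 and 0.0155 CPM of Trim12a and 0.814, 0.0205 and 0 CPM of Gvin1. Healthy replicate 2 and 3, without a Myc deletion, were thus near 0 in both genes as well. Against healthy kidneys the Gvin1 call was lost (-2.42, adjusted p = 0.108, edgeR's quasi-likelihood test). Gvin1 had at most 1.51 CPM in Myc cKO UUO and contralateral kidneys, and passed the filter on average level through other obstructed groups. Trim12a and Gvin1 belong to families of similar copies, among which counting may divide reads. Mouse line and Myc deletion cannot be told apart for them.

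The obstructed groups were compared as Myc cKO UUO against WT UUO in the same fit, a contrast in which Myc deletion and mouse line cannot be told apart. Both obstructed groups share the contralateral libraries as their reference, and this contrast is the difference of the 2 comparisons. It called 2572 of 21050 genes (12.2%), 1117 higher (5.31%) and 1455 lower (6.91%), and 3.72% were called with a change of at least 2-fold. WT UUO against contralateral called 53.6% of genes, 30.5% with at least 2-fold. The count rested on single libraries: it was 797 without WT UUO replicate 1, 1553 without WT UUO replicate 2 and 974 without Myc cKO UUO replicate 3, the library nearest to the unobstructed kidneys. Of the 202 genes named by rule, 66 were called, 30 of them in every fit that left out 1 library. Both counts include the 10 genes picked for the smallest p in this contrast, which were called by that choice.

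The most used injury markers were not called between the obstructed groups. Havcr1 had 368.2, 506.6 and 374 CPM in WT UUO kidneys, and Myc cKO UUO differed from them by -0.30 (adjusted p = 0.877); for Lcn2 the difference was -0.48 (adjusted p = 0.19). These intervals are wide, and a miss of the threshold does not show equal levels. Of the 20 injury genes 6 were lower in Myc cKO UUO than in WT UUO (2 without WT UUO replicate 1, and 2 without Myc cKO UUO replicate 3), among them Vim (-1.47) and Krt19 (-2.52), a keratin that urothelium also makes. Urothelial markers moved the same way, with a median difference of -2.66 (4 of 8 at an unadjusted p under 0.05). Their summed level was 78.1, 17.8 and 2.02 CPM in Myc cKO UUO kidneys, against 505.6, 107 and 37.2 CPM in WT UUO kidneys. Actg2 of ureteral smooth muscle averaged 3.71 ± 5.44 CPM in Myc cKO UUO and 27.1 ± 34.5 CPM in WT UUO kidneys (SD, n = 3 each). WT UUO replicate 1 was the highest library in both, and the part of such tissue in the differences below was not tested.

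Matrix genes were lower in Myc cKO UUO than in WT UUO kidneys. Of the 26 fibrillar matrix genes 20 were lower and none higher, with a median difference of -1.51; 8 were lower without WT UUO replicate 1, the library with the most urothelial and Actg2 signal. Col1a1 had 1429, 1297 and 686.9 CPM in WT UUO kidneys, all above the highest Myc cKO UUO library of 568.8 CPM, and differed by -1.90 (adjusted p = 0.0286). That call was lost in 4 of 6 fits that leave out 1 library, with an adjusted p up to 0.106. Timp1 (-1.84, adjusted p = 0.0125), Mmp14 (-1.39), Pdgfrb (-0.82), Col4a1 (-0.89) and Col4a2 (-0.88) were lower in every such fit. Of the 19 basement membrane genes 13 were lower, 7 without WT UUO replicate 1. Among endothelial genes 10 of 22 were lower in Myc cKO UUO than in WT UUO, 3 without WT UUO replicate 1; Cdh5 (-0.95, adjusted p = 0.00177) was lower in all 6 fits and Pecam1 (-0.42, adjusted p = 0.045) in 2 of 6.

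Genes of the proximal tubule and of mitochondria were higher in Myc cKO UUO than in WT UUO kidneys, hence nearer to the contralateral level. Further along the nephron fewer were called higher, beside 5.31% of all genes tested. For the loop and distal tubule it was 3 of 15 genes, or 2 to 8 with 1 library left out. For the collecting duct it was 1 of 15 genes, or 0 to 6 with 1 library left out. Of 25 proximal transport genes 18 were higher (median 1.37), 9 without Myc cKO UUO replicate 3. Cubn had 286.5, 337.2 and 572.7 CPM in Myc cKO UUO kidneys, against 99.9, 189.5 and 174.4 CPM in WT UUO kidneys, with no overlap. Its difference of 1.37 (adjusted p = 0.00438) was called in all 6 fits, as were those of mt-Nd2 (1.74), mt-Nd5 (1.61) and Etfa (0.71). All 9 genes of the gluconeogenesis and fructose metabolism list, Miox and Gatm among them, were higher (median 1.72). Without Myc cKO UUO replicate 3 only 1 was called higher, and likewise 1 without WT UUO replicate 1. For oxidative phosphorylation the count was 13 of 22 and 0 without either of these libraries, for the citric acid cycle 15 of 21 and 4 without Myc cKO UUO replicate 3, and for fatty acid oxidation 10 of 24 and 2 without either library. Lrp2 differed by 1.24 (adjusted p = 0.0109, and 0.0534 without Myc cKO UUO replicate 3). Hnf4a differed by 1.22 (adjusted p = 0.0241) and Ppargc1a by 1.17 (adjusted p = 0.0128), both calls being lost without Myc cKO UUO replicate 3 or WT UUO replicate 1.

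Among Myc targets, 5 of 20 polyamine and nucleotide genes were lower in Myc cKO UUO than in WT UUO kidneys and 2 higher, with a median difference of -0.05. Srm, which makes spermidine, differed by -1.02 and Cad, of pyrimidine synthesis, by -0.99, while Ppat, of purine synthesis, differed by 0.51. Neither higher call was left without Myc cKO UUO replicate 3 or without WT UUO replicate 1. Further, 6 of 20 ribosome biogenesis genes were lower in Myc cKO UUO than in WT UUO kidneys and none higher, with a median difference of -0.26 (3 lower without WT UUO replicate 1, 2 or 3, or Myc cKO UUO replicate 2 or 3). Bop1 had 20.9, 23.2 and 22.3 CPM in WT UUO kidneys and differed by -0.77 (adjusted p = 0.00124), Nop2 by -0.59 (adjusted p = 0.00414) and Gart, of purine synthesis, by -0.54 (adjusted p = 0.00381), each called in all 6 fits; Bop1 was picked for its p in this contrast. In Bop1, Nop2 and Gart the WT UUO libraries overlapped the contralateral ones and the Myc cKO UUO libraries lay below both. Hk2 had 48.7, 26.8 and 25.9 CPM in WT UUO kidneys and differed by -1.56 (adjusted p = 0.012, lost without Myc cKO UUO replicate 3 or WT UUO replicate 1). Other glycolysis genes lower in Myc cKO UUO than in WT UUO were Pkm (-1.20) and the lactate exporter Slc16a3 (-1.75); without WT UUO replicate 1, 0 of the 3 glycolysis calls were left. Of 15 macrophage genes 4 were lower, with a median difference of -0.60, but 1 without Myc cKO UUO replicate 2 or 3 or WT UUO replicate 1 or 2; C1qa differed by -0.83 and C1qc by -0.75. The median was -0.45 for chemokines and cytokines and 0.28 for neutrophil genes, each with 1 member lower (0 without Myc cKO UUO replicate 3 or WT UUO replicate 1). It was -0.09 for T cell, -0.14 for B cell, -0.21 for complement and -0.19 for interferon response genes, beside 0.0012 for all genes tested. The neutrophil score was 0.55, 0.75 and 4.16 in Myc cKO UUO replicate 1, 2 and 3, against 2.68, 2.08 and 2.17 in WT UUO kidneys. Replicate 1 and 2 thus lay below every WT UUO library and replicate 3 above them all.

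**Figure D5:**
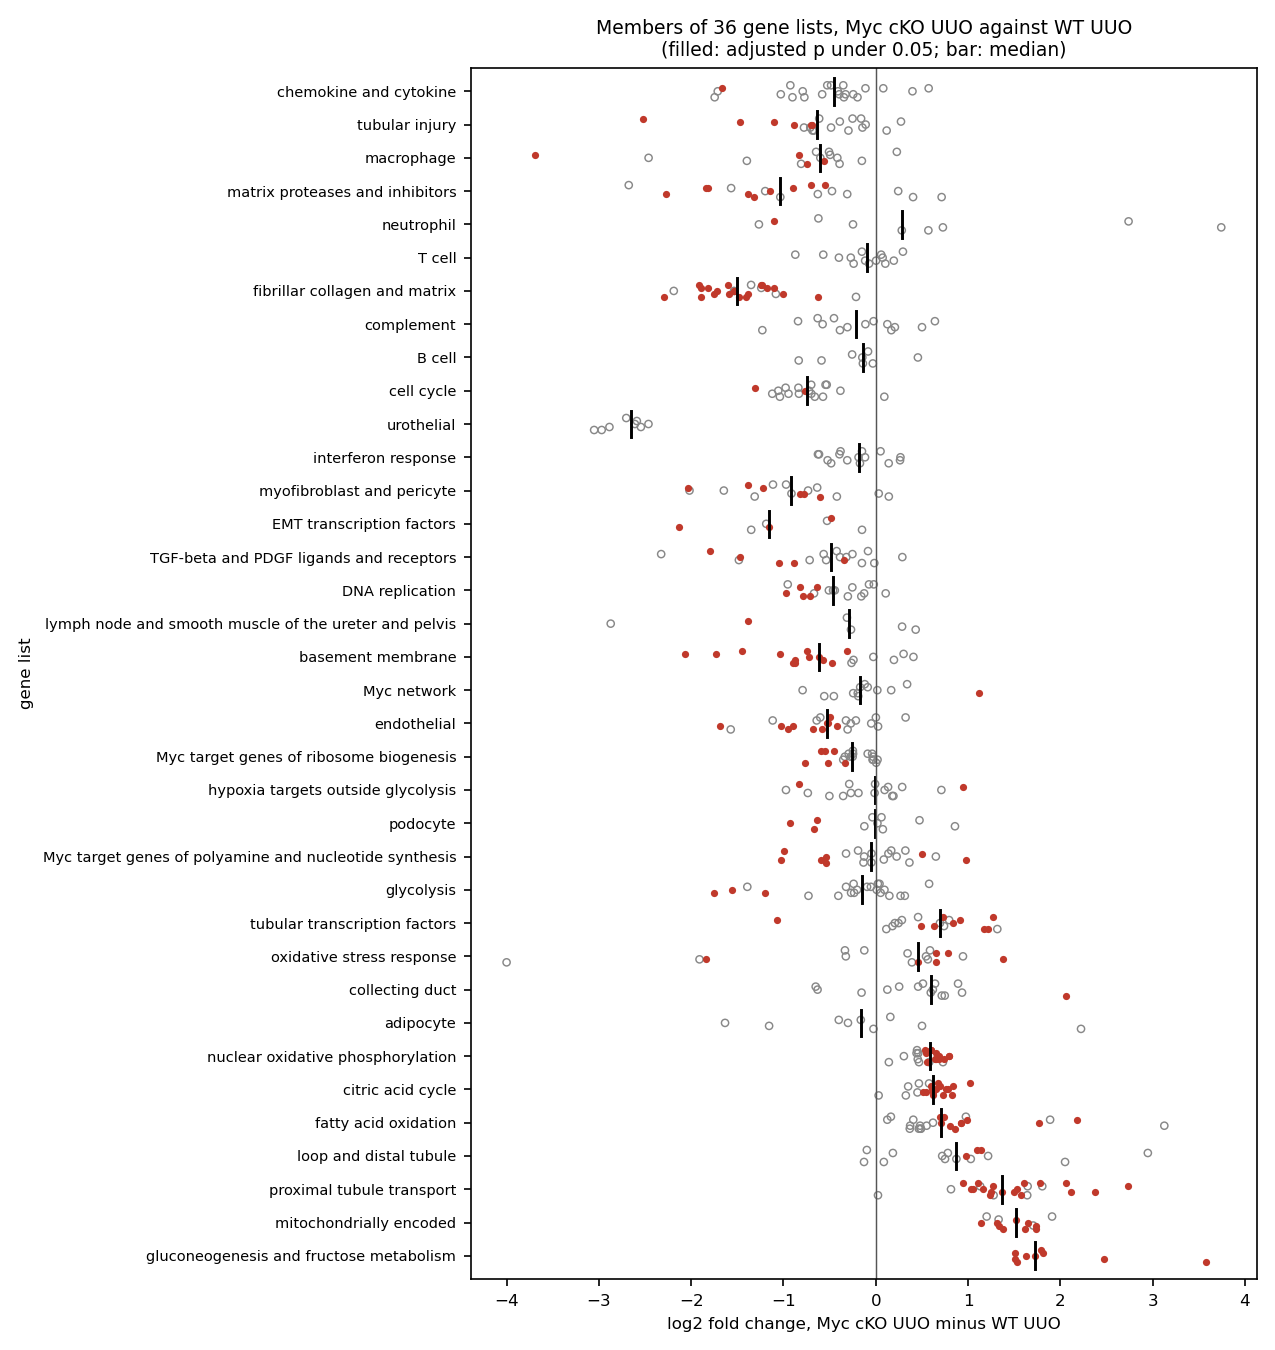
Log2 difference of every tested member of the 36 gene lists, Myc cKO UUO minus WT UUO, 1 point a gene; filled points have an adjusted p under 0.05 and bars are medians. Most fibrillar matrix genes lie below 0 (median -1.51) and all genes of the gluconeogenesis and fructose metabolism list above it (median 1.72).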

How the data were processed

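RNA of whole kidneys was sequenced as stranded, rRNA-depleted libraries, per the labels' protocols. The deposited counts are raw read counts per gene symbol; HTSeq, DESeq2, bcl2fastq 1.8.4 and build mm10 are named in the submitters' processing notes. For the aligner, the annotation and the strand option: not given in the sources used here. In the deposited normalized file each signal value equals its count divided by 1 size factor per library (largest relative deviation 5.19e-15) and was used for that check only. Sample labels matched 18 of the 24 columns in each table; the other 6 matched none and were not used.

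The counts were tested with edgeR 4.0.16 in R 4.3.3 (TMM scaling, robust quasi-likelihood fit over all 18 libraries in 6 groups, 12 residual degrees of freedom, two-sided, Benjamini-Hochberg adjustment over 21050 genes kept of 31787 symbols, threshold 0.05). Filtering used edgeR's filterByExpr. The SE of a fold change was its size over the root of the F statistic. Levels are TMM-scaled CPM computed from the counts. The procedure was tested on simulated data. Alternatives were limma 3.58.1 voom, DESeq2 1.42.0, other filters and scaling, Cre and sex covariates, the 2 groups alone, healthy kidneys as the reference, and each replicate left out.

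By rule, the genes singled out were Myc, the 10 largest rises and 10 largest falls that were called without overlap of the libraries (average log2 CPM of at least 1, no predicted or clone symbol), up to 4 members of each of 36 lists with the smallest p, members called against the median of their list, a panel of 18, and the 10 smallest p in Myc cKO UUO against WT UUO. Other list members are named with their values and were picked after these were seen. The members and lists were chosen with earlier results of these data known. Promoter sequences are from RefSeq (GRCm38.p6) and positions from GENCODE M21. Library totals set the precision of low counts, and floors cover counting error only.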

Additional observations from a re-analysis of the deposited data

Results flagged for a closer look

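Myc cKO UUO and WT UUO kidneys, which differ in mouse line as well as in the Myc deletion, differed in 2572 genes by edgeR's quasi-likelihood test. Deletion and line cannot be told apart in any of them. Among the genes with the lowest p, Tpbg, an inhibitor of Wnt signalling, differed by -1.22, Vat1 by -0.93, Emilin1 of elastic fibres by -0.91, Man1c1, a Golgi mannosidase, by -1.001, Pald1 by -0.77, Cdc42ep4, a Cdc42 effector, by -0.72, Tnks1bp1 by -0.79 and Bop1 by -0.77 on the log2 scale (Myc cKO UUO minus WT UUO). These genes were picked for their p in this contrast, so their values are a description. Tpbg had 6.37, 6.45 and 5.22 CPM in Myc cKO UUO kidneys, against 15.9, 12.9 and 13.2 CPM in WT UUO kidneys and 1.69, 1.43 and 1.79 CPM in contralateral kidneys.

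Further differences between Myc cKO UUO and WT UUO were -1.90 for Col1a1, -0.95 for Cdh5, -0.42 for Pecam1, -1.56 for Hk2, 1.17 for Ppargc1a, 1.22 for Hnf4a and 1.24 for Lrp2. Except for Cdh5, these calls were lost in at least 1 fit that left out a library.

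Gm1966, annotated as an unprocessed pseudogene on chromosome 7 (106596743 to 106604035, mm10), differed by -5.49. Gm26917, annotated as a lincRNA on chromosome 17 (39843013 to 39846341), differed by -2.09, and what its reads stem from was not tested. Gm1966 had 0.749, 0.553 and 0.104 CPM in Myc cKO UUO kidneys, against 15.5 to 31.3 CPM in WT UUO kidneys and 1.61 to 5.35 CPM in contralateral kidneys.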

How the results depend on the processing

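Myc cKO UUO against contralateral called 7161 to 9970 genes over the alternatives run, and 7742 to 9643 when 1 library was left out. Of 190 named genes called, 172 were called in all 6 such fits. Most of these genes were picked for a small p or a lack of overlap in this same comparison, so that share does not measure how stable other genes are. For Camp, leaving out 1 library gave -0.57 to 6.03, the lowest and opposite one without Myc cKO UUO replicate 3 (adjusted p = 0.671). Directions also turned with healthy in place of contralateral kidneys for Ucp1 (0.0858), Smtn (0.0202) and Tnks1bp1 (0.006), the last 3 with an adjusted p of 0.975, 0.89 and 0.964. With that reference 18 of 72 counts over the gene lists moved by more than 1.5 times, and 15 of the 202 named genes lost their call besides these 3. The cause was not tested.

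Myc cKO UUO against WT UUO depended more on single libraries. With 1 library left out, 797 to 3025 genes were called, 288 to 1429 of them higher and 509 to 1596 lower, and 247 to 1175 were called and changed at least 2-fold. DESeq2 called 1768 genes higher. Myc cKO UUO kidneys came from another mouse line than contralateral and WT UUO kidneys, so they could not be paired with either group. Contralateral and WT UUO kidneys matched, in sample order, in Cre status and in sex as read. Whether they share animals is not in the labels, so they were not analysed as pairs. With 3 libraries a group, differences of genes at low counts were not always detectable at this depth.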

Other observations

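Levels of 3 genes low in Myc cKO UUO kidneys were read in all 6 groups, those with the Snail or Twist deletion being obstructed kidneys. Gvin1 averaged 0.0470 ± 0.0449 CPM in Myc cKO UUO, 5.17 ± 0.560 with the Snail deletion, 3.26 ± 1.91 with the Twist deletion, 3.93 ± 1.03 in WT UUO, 1.03 ± 0.451 in contralateral and 0.278 ± 0.464 CPM in healthy kidneys (SD, n = 3 each). Gm1966 averaged 0.469 ± 0.330 CPM in Myc cKO UUO, 33.8 ± 3.23 with the Snail deletion, 17.2 ± 5.85 with the Twist deletion, 21.4 ± 8.65 in WT UUO, 3.14 ± 1.96 in contralateral and 0.767 ± 0.322 CPM in healthy kidneys (SD, n = 3 each). Gm26917 averaged 170.3 ± 14.5 CPM in Myc cKO UUO, 628.2 ± 68.8 with the Snail deletion, 904.7 ± 177.6 with the Twist deletion, 726.2 ± 134.6 in WT UUO, 881.7 ± 133.3 in contralateral and 299.6 ± 116.4 CPM in healthy kidneys (SD, n = 3 each).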
